A study of Mus musculus with 8 samples.

Results

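The late course of treatment with CL 316243, from 3 to 6 days, was compared in the epididymal white fat of wild type mice and of Ppara KO mice, which lack Ppara. The comparison takes 4 of the 8 arrays of the series, all those labelled 3 days CL or 6 days CL: 1 wild type and 1 Ppara KO array at each time. Both times share 1 dose, 3 nmol per hour, so the 4 groups differ by genotype and by days of drug, and no control array enters a change. The other 4 arrays were a control and an 8 hour sample at 30 nmol in each genotype. The labels call the wild type control free of drug and do not say whether controls were given a vehicle. Whether the RNA on an array came from 1 mouse or from a pool is not stated, nor are strain, age and the design of the Ppara allele. The differences may therefore hold technical as well as animal variation. Of 12488 probe sets, 6961 with a single gene symbol were bright enough to compare, and the brightest of each gene gave 5835 genes.

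CL 316243 activates the β3-adrenergic receptor of fat cells. That receptor raises cyclic AMP, starts the breakdown of stored triglyceride and, with longer exposure, gives white fat features of brown fat. Ppara encodes PPARα, a nuclear receptor that binds fatty acids and turns on genes of their oxidation. Fat under strong lipolysis is also known to take in monocytes, which become macrophages that can clear lipid and dying cells. The comparison asks what changed in the tissue between the third and the sixth day, and whether it changed alike with and without Ppara.

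Each change is the log2 intensity at 6 days minus that at 3 days in 1 genotype, 1 array against 1, so it has no replicate error and no p-value. A 2-fold difference, which is 1 on the log2 scale, was the rule of size. Intensities under 170 were set to that floor, and "at least" marks a difference in which only the brighter array was above it. The 4 arrays had medians of 320 and 40% of probe sets at or under the floor. Neither figure checks the arrays. The deposited values nearly share 1 distribution, and the floor was set at the 40th percentile of the 4 arrays. The 5'/3' ratios of the array's control probes lay between 1.14 and 1.18 for Gapdh, and between 0.700 (wild type at 6 days) and 0.869 for actin.

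In wild type 120 genes were 2-fold higher at 6 days (2.06% of those compared) and 233 were 2-fold lower (3.99%), 353 in all (6.05%). In Ppara KO fat 27 were 2-fold higher (0.463%) and 21 were 2-fold lower (0.36%), 48 in all (0.823%). The spread of the changes over all genes, as an SD, was 0.53 in wild type and 0.28 in Ppara KO. Among all 28 pairs of the 8 arrays, the Ppara KO arrays at 3 and 6 days were the closest. Over genes the changes of the genotypes were not related, with a Pearson r of -0.04 and a Spearman rho of -0.02, given as a description because genes are not independent replicates. Of the 233 genes 2-fold lower in wild type, 149 (63.9%) were higher in Ppara KO, with a median Ppara KO change of 0.18. Of the 120 genes 2-fold higher in wild type 70 (58.3%) were higher in Ppara KO, with a median of 0.09, while 49.7% of all genes were. The fit of limma over both genotypes, with genotype as a term, called 0 of 5835 genes at an adjusted p of 0.05 (0%), and 174 had an unadjusted p under 0.05 (2.98%). Its smallest adjusted p was 0.975, with 1 residual degree of freedom. No change below therefore passed a test, and genes are described as higher or lower on these arrays.

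**Figure D1:**
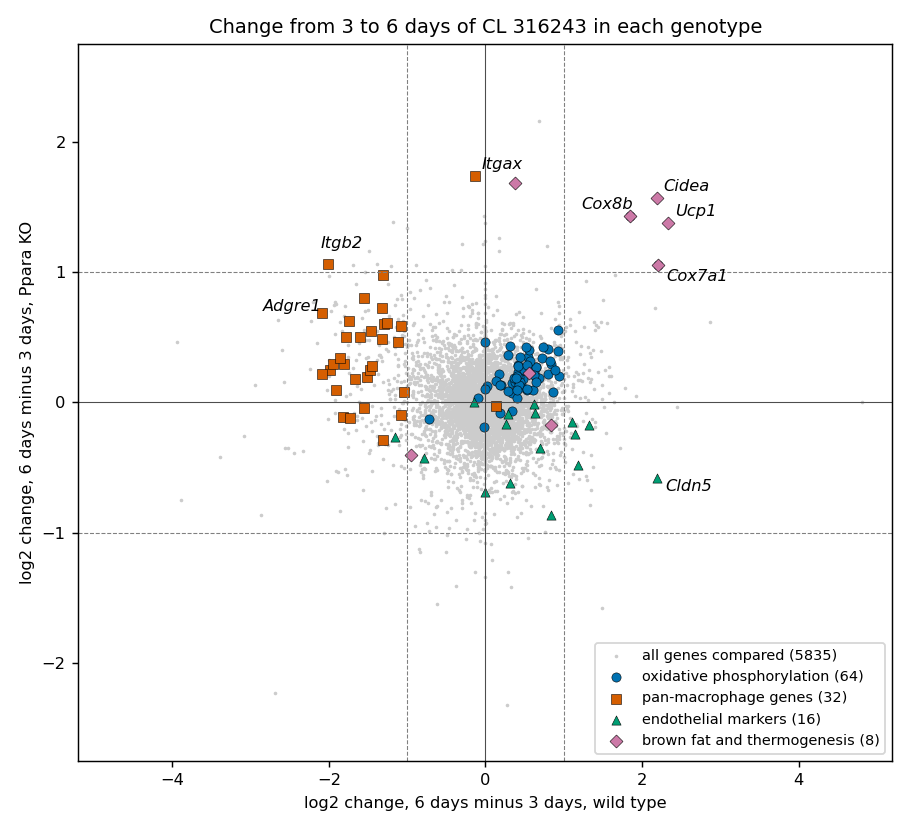
Change from 3 to 6 days of CL 316243 in wild type (horizontal axis) and in Ppara KO (vertical axis), as log2 of the intensity at 6 days minus log2 at 3 days, for each of 5835 genes (grey) and for 4 gene lists (coloured symbols, with the number of members compared). Dashed lines mark 2-fold. Of the brown fat list, 4 members lie past 2-fold on both axes at the upper right, while 30 of the 32 pan-macrophage genes lie left of the 2-fold line in wild type and 26 lie above 0 in Ppara KO.

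Ppara itself, the gene targeted in the knockout, was brighter in wild type at both times. Its intensity was 604 at 3 days and 1843 at 6 days in wild type, a 3.05-fold higher level. In Ppara KO it was 292 and 336. The wild type and Ppara KO values did not overlap. Where its probes lie relative to the removed part of the gene is not known here, so the signal left in Ppara KO does not test the labels.

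The genes that were 2-fold higher at 6 days in both genotypes were 4 in number (0.0686% of those compared), and all are known genes of brown fat: Ucp1, Cidea, Cox8b and Cox7a1. Ucp1, which encodes the uncoupling protein that lets brown fat mitochondria make heat, stood at 7219 at 3 days and 36495 at 6 days in wild type, and at 6192 and 16088 in Ppara KO. Without drug the control arrays read 381 and 300. The 8 hour arrays, given a different dose, read 23779 in wild type and 9616 in Ppara KO, each above the 3 day value of its genotype. Ucp1 therefore did not climb steadily across the arrays of a genotype. Cidea, Cox8b and Cox7a1 were lower at 8 hours than at 3 days in both genotypes. For Ucp1 both 6 day arrays were above both 3 day arrays, and wild type was above Ppara KO at 3 and at 6 days. The 6 day level was 5.06-fold the 3 day level in wild type and 2.60-fold in Ppara KO, and the mean change was 1.86 ± 0.29 (SE of the limma fit). Cidea, which encodes a lipid droplet protein of brown and beige fat, read 4574 and 20867 in wild type and 2883 and 8551 in Ppara KO. Cox8b and Cox7a1 encode subunits of cytochrome oxidase that are typical of brown fat and muscle. Cox8b read 5767 and 20683 in wild type and 3585 and 9680 in Ppara KO. Cox7a1 read 1779 and 8217 in wild type and 1193 and 2476 in Ppara KO. For each of the 4 genes the fold was larger in wild type, 5.06, 4.56, 3.59 and 4.62 against 2.60, 2.97, 2.70 and 2.08, in the order Ucp1, Cidea, Cox8b, Cox7a1. A limma test of the difference between the genotypes' changes, which drew its spread from the control and 8 hour arrays, gave these 4 genes unadjusted p-values from 0.254 to 0.712.

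The start regions of Ucp1, Cox7a1 and Cox8b are shown because these genes were higher together in both genotypes, and that of Cd68 because it stands for the macrophage genes that differed by genotype. Each is the 250 bases before the annotated start, from RefSeq on GRCm38.p6, read in the direction of the gene. Capitals mark TGACG, the core of the cyclic AMP response element, and AGGTCA, the nuclear receptor core, in the first 3 genes, and GAGGAA, the core bound by PU.1, in Cd68, on either strand.
Ucp1 (chr8:83290098-83290347, plus strand): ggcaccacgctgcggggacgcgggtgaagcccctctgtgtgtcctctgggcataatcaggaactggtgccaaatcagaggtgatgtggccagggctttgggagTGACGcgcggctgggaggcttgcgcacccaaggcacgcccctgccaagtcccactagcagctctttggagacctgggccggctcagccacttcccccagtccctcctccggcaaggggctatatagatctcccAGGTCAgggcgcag
Cox7a1 (chr7:30183921-30184170, plus strand): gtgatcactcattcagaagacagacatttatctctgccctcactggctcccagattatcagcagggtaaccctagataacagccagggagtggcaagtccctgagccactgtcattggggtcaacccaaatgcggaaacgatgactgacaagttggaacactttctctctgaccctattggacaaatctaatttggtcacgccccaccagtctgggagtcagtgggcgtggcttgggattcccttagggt
Cox8b (chr7:140900447-140900696, minus strand): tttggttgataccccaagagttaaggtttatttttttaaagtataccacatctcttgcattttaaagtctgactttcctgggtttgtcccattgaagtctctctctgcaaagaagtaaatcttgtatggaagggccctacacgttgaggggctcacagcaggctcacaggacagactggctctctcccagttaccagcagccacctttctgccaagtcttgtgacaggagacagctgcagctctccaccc
Cd68 (chr11:69666171-69666420, minus strand): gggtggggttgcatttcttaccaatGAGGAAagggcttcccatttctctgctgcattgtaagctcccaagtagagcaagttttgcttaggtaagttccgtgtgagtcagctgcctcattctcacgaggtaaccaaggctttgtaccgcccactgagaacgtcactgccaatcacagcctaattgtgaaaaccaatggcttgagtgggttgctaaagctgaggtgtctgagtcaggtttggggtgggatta
Ucp1 held TGACG from 147 to 143 bases and AGGTCA from 14 to 9 bases before its start. Cd68 held GAGGAA from 225 to 220 bases before its start and also TGACG on the opposite strand, left in lower case, from 92 to 88 bases before it. Neither TGACG nor AGGTCA occurred in the windows of Cox7a1 and Cox8b, which says only that these letters are not in these 250 bases. Over the 32851 windows of the table, 17.8% held TGACG, 14% AGGTCA and 23.3% GAGGAA on either strand, with overlaps between strings allowed. Over the 6081 windows of genes compared here the shares were 26.4%, 11.1% and 22.7%. Of 25 windows from 23 pan-macrophage genes, 9 held GAGGAA (36.0%), 3 TGACG (12%) and 4 AGGTCA (16%). Of 6 windows from brown fat genes, 3 held TGACG and 2 AGGTCA. A match describes the letters and is not evidence of a site.

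Other genes of the brown fat list did not all share this course. Of 8 members compared, 4 were 2-fold higher in wild type and 5 in Ppara KO (2.06% and 0.463% of all genes were), and 0 were 2-fold lower in either. The median change was 1.34 (wild type) and 1.22 (Ppara KO), against 0.01 and 0.00 over all genes. With the dim members counted too, the medians were 0.70 and 0.11. The additional Ppara KO member was Fabp3, a fatty acid binding protein of heart and brown fat, at 345 and 449 in wild type and at 115 and 547 in Ppara KO, at least 3.22-fold higher there since the first value is under the floor. Elovl3, a fatty acid elongase of brown fat, was lower in both, at 581 and 301 in wild type and at 225 and 163 in Ppara KO. Dio2, the deiodinase that activates thyroid hormone, read 812 and 1196 in wild type and 357 and 417 in Ppara KO. Ckmt2, Ppargc1a and Slc27a2 were at or under the floor on all 4 arrays. The summed intensity of the 12 members with a probe set was 22139 and 90768 in wild type and 15327 and 38637 in Ppara KO. Fat cell markers held their level: of 19 adipocyte identity genes 0 were 2-fold apart in either genotype, with medians of 0.10 and -0.04. Adipoq (adiponectin) was at 49802 and 53119 in wild type and at 36010 and 41987 in Ppara KO.

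**Figure D2:**
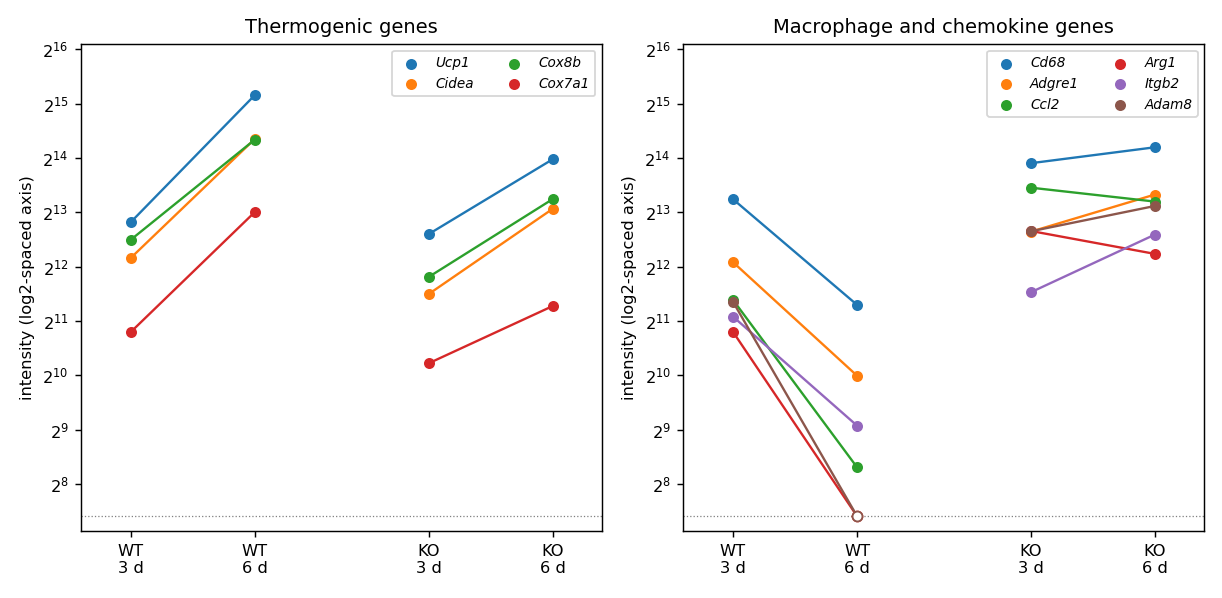
Intensity on each of the 4 arrays (WT, wild type; KO, Ppara KO; 3 d and 6 d, days of CL 316243), on a log2-spaced axis, for 4 thermogenic genes (left) and 6 macrophage and chemokine genes (right). Each point is 1 array, lines join the times of a genotype, the dotted line is the floor of 170, and open circles are values at or under it. The thermogenic genes are higher at 6 days in both genotypes, while the right-hand genes are 3.85-fold or more lower at 6 days in wild type and range from 1.34-fold lower (Arg1) to 2.09-fold higher (Itgb2) in Ppara KO.

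Mitochondrial genes were mostly higher at 6 days in both genotypes, by less than 2-fold. Of 64 oxidative phosphorylation genes, which encode the respiratory chain and ATP synthase, 59 were higher in wild type and 60 in Ppara KO, where 50.5% and 49.7% of all genes were higher. The median of their changes was 0.47 (wild type) and 0.20 (Ppara KO), and Cox7a1 and Cox8b were the 2 members past 2-fold in each. Sdha, the flavoprotein of complex II, read 2892 and 5502 in wild type and 1935 and 2848 in Ppara KO. Uqcr11, of complex III, read 10587 and 20148 in wild type and 8357 and 10959 in Ppara KO. Of 25 TCA cycle genes the median change was 0.58 (wild type) and 0.17 (Ppara KO), with Sucla2 and Idh3g 2-fold higher in wild type and 0 in Ppara KO. Sucla2, a subunit of succinyl-CoA ligase, stood at 4196 and 11064 in wild type and at 3407 and 5016 in Ppara KO, so that both 6 day values exceeded both 3 day values. Idh3g, a subunit of isocitrate dehydrogenase, stood at 9485 and 19298 in wild type and at 6817 and 10206 in Ppara KO.

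Most genes of mitochondrial fatty acid oxidation were higher at 6 days in both genotypes, nearly all by less than 2-fold. Of 18 compared, 17 were higher in wild type and 15 in Ppara KO, and the median change was 0.52 (wild type) and 0.17 (Ppara KO). Acads, the short-chain acyl-CoA dehydrogenase, was 2-fold higher in wild type, at 2922 and 6011, and read 2057 and 2262 in Ppara KO. With the mean of its probe sets it was not 2-fold higher. The 1 member lower in wild type was Cpt1a, the liver form of the enzyme that commits fatty acids to mitochondria, which read 4578 and 1954 there, 2.34-fold lower, and 6844 and 7158 in Ppara KO. Of 21 PPARα target genes the median change was 0.41 (wild type) and 0.06 (Ppara KO), with 1 member 2-fold lower in wild type (Cpt1a) and 1 2-fold higher in Ppara KO (Fabp3). Pdk4, a kinase that restrains glucose oxidation, was higher in wild type, at 5629 and 10272, and lower in Ppara KO, at 5431 and 4158. Acaa1b, a peroxisomal thiolase, was lower in both, at 28039 and 15824 in wild type and at 23615 and 16339 in Ppara KO. Ehhadh, the peroxisomal bifunctional enzyme, hardly moved, at 1336 and 1445 in wild type and at 222 and 241 in Ppara KO, and its wild type values stayed well above those of Ppara KO.

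Among genes of fat synthesis Elovl6 stood out in wild type. This elongase of palmitate read 520 at 3 days and 3815 at 6 days in wild type (7.34-fold) and 454 and 697 in Ppara KO (1.54-fold). The controls read 1628 (wild type) and 1219 (Ppara KO), above both 3 day values. Elovl6 was the only one of 21 members past 2-fold in either genotype. Fasn, fatty acid synthase, read 26446 and 38763 in wild type and 14972 and 15054 in Ppara KO. Tkt, a transketolase of the pentose phosphate pathway, read 22221 and 37805 in wild type and 16393 and 16960 in Ppara KO. Gpd1, which makes glycerol phosphate, read 19994 and 35551 in wild type and 16425 and 15752 in Ppara KO. Beyond that list, the imprinted gene Mest, known from the enlargement of fat cells, was at 488 and 2663 in wild type and at 638 and 622 in Ppara KO. Its controls read 2739 (wild type) and 2113 (Ppara KO), so only wild type at 6 days was near its control. Gpd2, the mitochondrial glycerol phosphate dehydrogenase, named after its values were seen, was at 753 and 3378 in wild type and at 548 and 905 in Ppara KO. Ldhb, a lactate dehydrogenase subunit, was at 1304 and 3549 in wild type and at 808 and 1206 in Ppara KO.

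Macrophage genes gave the widest contrast between the genotypes. Of 32 pan-macrophage genes compared, 30 were 2-fold lower at 6 days in wild type (3.99% of all genes were) and 0 were 2-fold higher. In Ppara KO 0 were 2-fold lower, 2 were 2-fold higher (0.463% of all genes were) and 26 lay above 0. The median change was -1.53 (wild type) and 0.32 (Ppara KO), and 26 of the 32 were lower in wild type and higher in Ppara KO, as were 23.2% of all genes. The summed intensity of the 34 members with a probe set was 146165 and 53468 in wild type and 203988 and 270292 in Ppara KO, against 34596 and 45275 in the controls. In bulk tissue fewer macrophages and less of these RNAs per macrophage cannot be told apart.

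Adgre1, which encodes the F4/80 marker, read 4336 and 1019 in wild type and 6392 and 10264 in Ppara KO. Cd68, a lysosomal membrane protein of macrophages, read 9676 and 2515 in wild type and 15308 and 18755 in Ppara KO. For both genes wild type at 6 days was the lowest of the 4 arrays and Ppara KO at 6 days the highest. Spi1, which encodes the transcription factor PU.1, followed the same order, at 2110 and 580 in wild type and at 2619 and 3311 in Ppara KO. Csf1r, the receptor for the macrophage growth factor, read 7422 and 2603 in wild type and 8695 and 9941 in Ppara KO. Lyz2, lysozyme, read 20143 and 8036 in wild type and 22018 and 30781 in Ppara KO. The 2 members that were not 2-fold lower in wild type were Itgax and Cx3cr1. In Ppara KO 6 of the 32 lay below 0, down to -0.29 for Hmox1, haem oxygenase. Itgax, the integrin CD11c, read 985 and 897 in wild type and 796 and 2658 in Ppara KO, 3.34-fold higher there. Cx3cr1, the fractalkine receptor, was nearly level, at 789 and 863 in wild type and at 514 and 505 in Ppara KO.

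Genes of alternatively activated macrophages were lower in wild type and mostly a little lower in Ppara KO. Of 8 compared, 5 were 2-fold lower in wild type and 0 in Ppara KO (3.99% and 0.36% of all genes were), with medians of -1.57 and -0.35. Arg1, arginase, was bright at 1783 in wild type at 3 days and under the floor at 6 days (51), at least 10.5-fold lower. In Ppara KO it read 6453 and 4818. Mrc1, the mannose receptor, read 3875 and 772 in wild type and 8290 and 6391 in Ppara KO. Stab1, a scavenger receptor, read 4720 and 1388 in wild type and 6050 and 4120 in Ppara KO. Chil3, which encodes the secreted protein Ym1, was lower by about the same factor in both, at 405 and 218 in wild type and at 2570 and 1331 in Ppara KO (1.86-fold and 1.93-fold). Folr2, a folate receptor, was the 1 of the 5 that was not lower in Ppara KO, at 6394 and 1601 in wild type and at 9330 and 10717 in Ppara KO.

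Lysosome and lipid handling genes of macrophages showed the same contrast with smaller steps. Of 38 compared, 12 were 2-fold lower in wild type (3.99% of all genes were) and 34 lay below 0, where 47.1% of all genes did. In Ppara KO 1 was 2-fold higher (0.463% of all genes were) and 33 lay above 0, where 49.7% of all genes did. Their medians were -0.58 and 0.17. Lgmn, the lysosomal protease legumain, read 8146 and 2027 in wild type and 14000 and 12819 in Ppara KO. Ctsl, cathepsin L, read 21347 and 8999 in wild type and 27655 and 31083 in Ppara KO. The Ppara KO member past 2-fold was Mmp12, macrophage elastase. Its intensity was 1300 and 2087 in wild type and 2106 and 9399 in Ppara KO, 4.46-fold higher there and the largest increase of any gene in Ppara KO. Plin2, a coat protein of lipid droplets also abundant in lipid-filled macrophages, read 25671 and 15158 in wild type and 35619 and 36946 in Ppara KO.

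**Figure D3:**
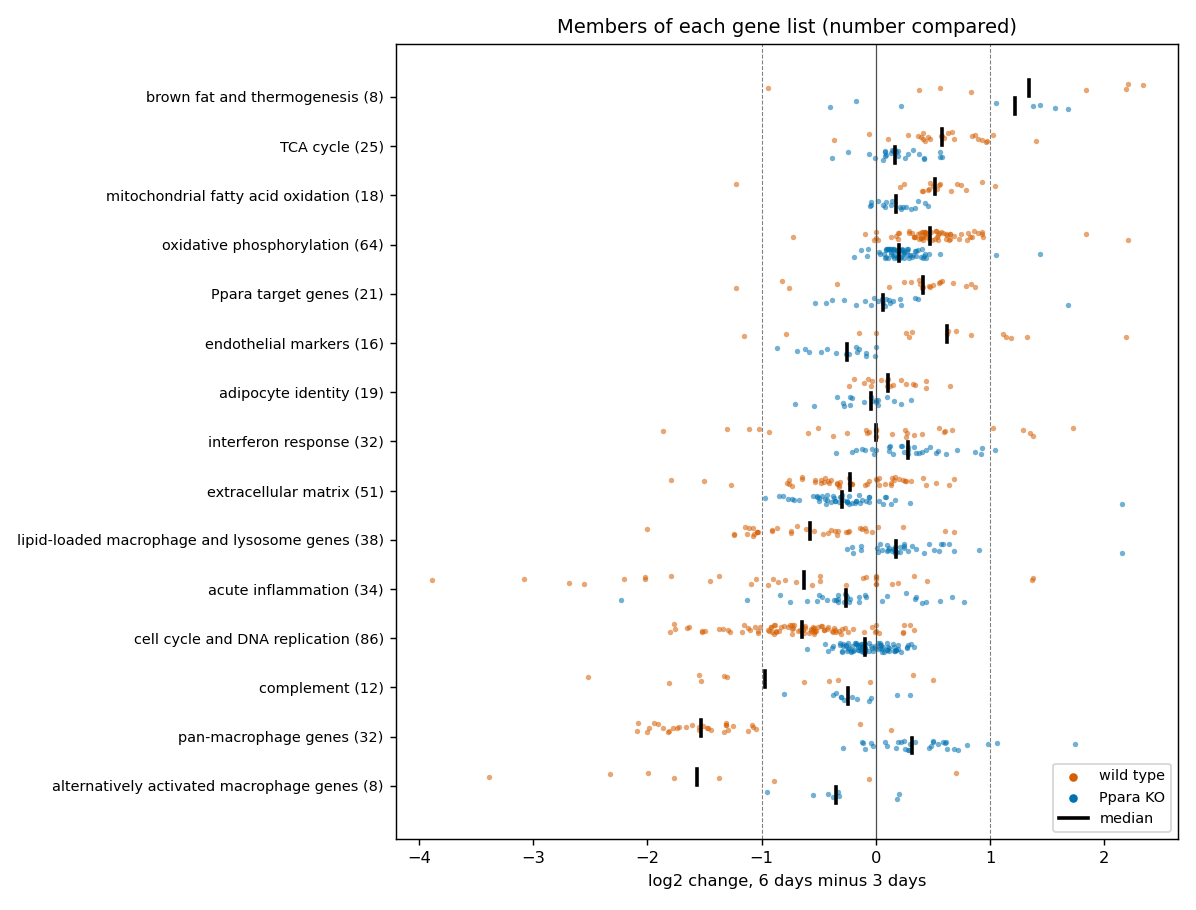
Log2 change from 3 to 6 days for each compared member of 15 gene lists, in wild type (orange) and Ppara KO (blue); black bars are list medians, the number of members is in brackets, and dashed lines mark 2-fold. The pan-macrophage medians are -1.53 in wild type and 0.32 in Ppara KO, and the brown fat medians 1.34 and 1.22.

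Chemokine and acute phase genes were lower at 6 days in wild type. Of 34 acute inflammation genes 12 were 2-fold lower and 2 were 2-fold higher there (3.99% and 2.06% of all genes were). In Ppara KO 2 were 2-fold lower (0.36% of all genes were) and 0 were 2-fold higher. The medians were -0.63 and -0.26, and 0.00 and -0.09 with the dim members counted too. Ccl2, which attracts monocytes, read 2679 and 317 in wild type, 8.45-fold lower, and 11208 and 9387 in Ppara KO. Saa3, a serum amyloid protein made in fat, read 2810 and 190 in wild type, 14.8-fold lower, and 3670 and 2179 in Ppara KO. Both wild type values at 6 days lay below the controls, at 388 and 568 for Ccl2 and 244 and 389 for Saa3 (wild type and Ppara KO). Ccl6 and Timp1 followed: Ccl6, another chemokine, read 2989 and 508 in wild type and 6751 and 5284 in Ppara KO. Timp1, an inhibitor of metalloproteases, read 7883 and 2270 in wild type and 15551 and 10902 in Ppara KO. The members higher in wild type at 6 days were Cxcl9 and Ptges: Cxcl9, a chemokine of the interferon γ response, read 257 and 666 in wild type and 359 and 475 in Ppara KO. Ptges, a prostaglandin E synthase, read 1079 and 2786 in wild type and 1047 and 743 in Ppara KO. Il1a, Il1b, Il6, Tnf and 9 other members, most of them cytokines, were at or under the floor on all 4 arrays.

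The genes 2-fold lower at 6 days in both genotypes were Orm2 and Alpl (0.0343% of those compared). Orm2, an acute phase glycoprotein, read 1222 and 190 in wild type and 2130 and 454 in Ppara KO. It was 6.43-fold and 4.69-fold lower and had the smallest unadjusted p of the limma fit over both genotypes, 0.000234 for a mean change of -2.46 ± 0.21 (SE). Alpl, alkaline phosphatase, read 467 and 190 in wild type and 1032 and 516 in Ppara KO, which is exactly 2-fold lower, and its Ppara KO control read 1435. Lcn2, an acute phase lipocalin, was lower in both, at 4054 and 2244 in wild type and at 2934 and 1346 in Ppara KO, and passed 2-fold in Ppara KO. Orm1, a close relative of Orm2 whose probes may share sequence with it, read 7217 and 7965 in wild type and 4182 and 3329 in Ppara KO.

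After Gpx5, described below with the epididymal genes, the largest differences between the genotypes' changes were led by Adam8, Hal, Saa3 and Fos. Adam8, a metalloprotease of leukocytes, was at 2615 in wild type at 3 days and under the floor at 6 days (27), at least 15.4-fold lower, and at 6423 and 8873 in Ppara KO. Hal, histidine ammonia lyase, read 3496 and 558 in wild type and 4392 and 6807 in Ppara KO. S100a4, a calcium-binding protein of motile cells, read 6514 and 1077 in wild type and 10990 and 14538 in Ppara KO. In all 3 genes wild type at 6 days stood apart below the other arrays. Il1rn, the interleukin 1 receptor antagonist, read 784 at 3 days in wild type and was under the floor at 6 days, at least 4.61-fold lower, and it read 976 and 1663 in Ppara KO. The test of the difference between the changes with all 8 arrays called 0 genes by limma at an adjusted p of 0.05 (0%), and 252 had an unadjusted p under 0.05 (4.32%). Its spread rests on the control and 8 hour arrays, and some of these held other tissue. The summed epididymis and testis genes read 139193 in the Ppara KO control and 5393 in the wild type control, and the summed pancreas genes 7455 and 91884. At 8 hours the epididymal gene Gpx5 read 9017 in Ppara KO and 90 in wild type, and the pancreas gene Ctrb1 8261 and 558. Their part in that result was not tested.

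Complement genes moved with the macrophage genes in wild type. Of 12 compared, 6 were 2-fold lower in wild type and 0 in Ppara KO (3.99% and 0.36% of all genes were). The medians were -0.97 and -0.24 (-0.52 in wild type with the dim members counted too). Cfp, properdin, read 3275 and 570 in wild type and 5975 and 4693 in Ppara KO. C1qb, of the first complement component, read 12830 and 4433 in wild type and 19009 and 18245 in Ppara KO. All 3 chains of that component, C1qa, C1qb and C1qc, were 2.47-fold to 2.89-fold lower in wild type and 1.04-fold to 1.23-fold lower in Ppara KO. The receptors C3ar1 and C5ar1, also on the pan-macrophage list, made up 2 of the 6.

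Cell cycle genes were lower at 6 days in wild type and close to level in Ppara KO. Of 86 compared, 20 were 2-fold lower in wild type (3.99% of all genes were) and 78 lay below 0, where 47.1% of all genes did. In Ppara KO 0 were 2-fold apart (0.823% of all genes were) and 56 lay below 0, where 48% of all genes did. The medians were -0.64 and -0.10. With the floor at 320, 13 were 2-fold lower in wild type. Rrm1, a subunit of ribonucleotide reductase, read 1434 and 411 in wild type and 1838 and 1596 in Ppara KO. Mki67, the proliferation antigen, read 1544 and 717 in wild type and 2070 and 1936 in Ppara KO. Birc5, survivin, read 1491 and 518 in wild type and 1581 and 1540 in Ppara KO. The 3 other arrays lay close together for these genes, with wild type at 6 days below them. Its value was still above the controls, which read 36 and 42 for Mki67. Which cells were dividing was not measured.

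A few immediate early genes, which respond to signals within minutes, were lower in wild type at 6 days. Of 28 compared, 5 were 2-fold lower in wild type (3.99% of all genes were), and 2 were 2-fold higher in Ppara KO (0.463% of all genes were). The medians were -0.19 and 0.10. Fos, a component of the AP-1 factor, read 1333 and 173 in wild type, 7.71-fold lower, and 3550 and 3904 in Ppara KO. The metallothioneins, which bind zinc and respond to stress, were lower in wild type too. Mt2 read 12077 and 3280 in wild type and 17607 and 12170 in Ppara KO, and Mt1 read 11591 and 5384 in wild type and 17203 and 13733 in Ppara KO.

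Endothelial genes went the other way. Of 16 markers, 5 were 2-fold higher and 1 was 2-fold lower in wild type (2.06% and 3.99% of all genes were), with a median of 0.63. In Ppara KO 0 were 2-fold apart, as only 0.823% of all genes were. There 15 lay below 0, where 48% of all genes did, and the median was -0.25. Cldn5, the claudin of endothelial tight junctions, read 859 and 3929 in wild type and 2158 and 1441 in Ppara KO. Cdh5, the cadherin of endothelial junctions, read 2606 and 6504 in wild type and 3160 and 2796 in Ppara KO. For both, wild type was the lowest of the 4 arrays at 3 days and the highest at 6 days. The wild type control read 3735 for Cldn5 and 6506 for Cdh5, so the 6 day values were close to it. The Ppara KO control read 2522 and 2942. Kdr, Tie1 and Sox18, a pair of receptors and a transcription factor of vessels, were 2.16-fold to 2.27-fold higher in wild type and 1.11-fold to 1.40-fold lower in Ppara KO. Edn1, endothelin, was 2-fold lower in wild type, at 381 and 171. Vwf, von Willebrand factor, was lower in both, at 1040 and 603 in wild type and at 1260 and 938 in Ppara KO. The list was thus not of 1 direction in wild type. Its summed intensity was 20207 and 34747 in wild type and 26132 and 21208 in Ppara KO, against 38776 and 22868 in the controls.

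Stromal genes were lower by small amounts in Ppara KO. Of 51 extracellular matrix genes 43 lay below 0 in Ppara KO with a median of -0.30, and 31 in wild type with a median of -0.22. In wild type 3 were 2-fold lower (3.99% of all genes were), and in Ppara KO Mmp12 was the only member 2-fold apart (0.823% of all genes were). Fbln2, fibulin, was lower in both, at 5988 and 2484 in wild type and at 11724 and 6688 in Ppara KO. Fn1, fibronectin, read 7991 and 2810 in wild type and 12687 and 12169 in Ppara KO. Of 15 smooth muscle and pericyte genes 13 lay below 0 in Ppara KO and 8 in wild type, with medians of -0.27 and -0.09. Acta2, smooth muscle actin, read 1173 and 1060 in wild type and 2514 and 1343 in Ppara KO. Of 16 fibroblast progenitor genes 13 lay below 0 in Ppara KO and 11 in wild type, and Sfrp2, a secreted modulator of Wnt signals, read 1693 and 571 in wild type and 3521 and 2207 in Ppara KO.

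Interferon response genes were mixed in wild type and mostly a little higher in Ppara KO. Of 32 compared, 5 were 2-fold higher and 4 were 2-fold lower in wild type (2.06% and 3.99% of all genes were). In Ppara KO 25 lay above 0, where 49.7% of all genes did, with a median of 0.28, and 1 was 2-fold higher. The higher members in wild type were Iigp1, Cxcl9, Gbp3, Isg15 and Irf7, and the lower ones were Ifi30, Samhd1, Irf5 and Irf8. Isg15, a ubiquitin-like protein, was higher in both, at 177 and 433 in wild type and at 752 and 1435 in Ppara KO. Irf7, a transcription factor, read 345 at 6 days in wild type from under the floor, and 691 and 1009 in Ppara KO. Iigp1, a GTPase, read 271 and 894 in wild type and 1046 and 821 in Ppara KO. Ifi30, a lysosomal reductase, read 4436 and 1222 in wild type and 4659 and 7137 in Ppara KO. The Ppara KO member past 2-fold was Ifit1, at 272 and 562, which was under the floor at both times in wild type.

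Of the 27 genes 2-fold higher in Ppara KO, 4 were also 2-fold higher in wild type, 8 were 2-fold lower there and 15 were within 2-fold. The 8 that went in opposite directions (0.137% of those compared) were Itgb2, Egr2, Clec4a2, Il7r, Cadm1, Tcirg1, Blnk and Atf3. Itgb2, the integrin chain shared by leukocyte adhesion receptors, read 2166 and 539 in wild type and 2952 and 6159 in Ppara KO, 4.02-fold lower and 2.09-fold higher. Clec4a2, a lectin receptor of myeloid cells, read 478 at 3 days in wild type and was under the floor at 6 days, and read 554 and 1239 in Ppara KO. Tcirg1, a subunit of the proton pump of lysosomes, read 1930 and 738 in wild type and 1759 and 3676 in Ppara KO. These 3 were close between the genotypes at 3 days and apart at 6 days. Blnk, an adaptor of immune receptor signals, read 1391 and 692 in wild type and 1618 and 4093 in Ppara KO. Cadm1, an adhesion molecule, read 2562 and 882 in wild type and 3824 and 7661 in Ppara KO. Both sat near the 2-fold limit in 1 genotype, Blnk at 2.01-fold lower in wild type and Cadm1 at 2.0-fold higher in Ppara KO. Atf3, Egr2, Itgb2 and Tcirg1 were near it too, at 2.07-fold to 2.09-fold higher in Ppara KO. The transcription factors Egr2 and Atf3 read 968 and 300, and 2232 and 967, in wild type. In Ppara KO they read 741 and 1536, and 2093 and 4333. Il7r, the interleukin 7 receptor, read 518 and 228 in wild type and 685 and 1790 in Ppara KO. The T cell receptor genes Cd3d, Cd3e and Cd3g were at or under the floor on all 4 arrays.

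**Figure D4:**
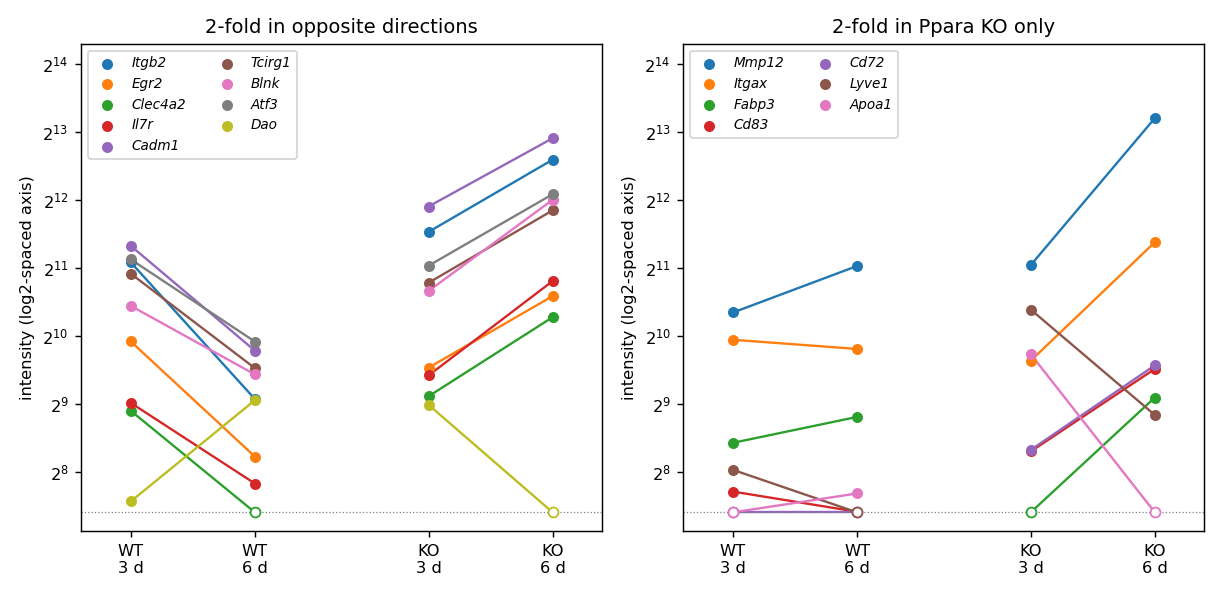
Intensity on each of the 4 arrays (WT, wild type; KO, Ppara KO; 3 d and 6 d, days of CL 316243), on a log2-spaced axis, for the 9 genes 2-fold apart in opposite directions in the genotypes (left) and for 7 genes 2-fold apart in Ppara KO only (right). Each point is 1 array, the dotted line is the floor of 170, and open circles are values at or under it. On the left 8 genes are lower at 6 days in wild type and higher in Ppara KO, and Dao goes the other way.

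The gene 2-fold higher in wild type and 2-fold lower in Ppara KO was Dao, D-amino acid oxidase (0.0171% of those compared). It read 190 and 532 in wild type and 508 in Ppara KO at 3 days, and was under the floor there at 6 days. Cd83 and Cd72 were among the 15 genes 2-fold higher in Ppara KO and within 2-fold in wild type. Cd83, of activated antigen-presenting cells, read 210 and 171 in wild type and 316 and 732 in Ppara KO. Cd72, a receptor of B cells and macrophages, was under the floor at both times in wild type and read 321 and 759 in Ppara KO. Of 11 genes on the list of MHC class II and antigen presentation, which holds Cd83, 0 others were 2-fold higher in Ppara KO, and Ifi30 and Ctss were 2-fold lower in wild type. By any amount 10 of the 11 lay above 0 in Ppara KO and 5 in wild type, with medians of 0.18 and -0.10. H2-Ab1, a class II chain, read 2071 and 2719 in wild type and 2708 and 3104 in Ppara KO.

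Of the 21 genes 2-fold lower in Ppara KO, 18 were within 2-fold in wild type, and most were dim. Apoa1, the main protein of high density lipoprotein, read 850 in Ppara KO at 3 days and was under the floor at 6 days, at least 5.0-fold lower. In wild type it was 103 and 206. Lyve1, a hyaluronan receptor of lymphatic vessels and of some resident macrophages, read 1339 and 458 in Ppara KO and 262 at 3 days in wild type, where it was under the floor at 6 days. Cps1, Plg and Lbp, chosen after their values were seen, are known as liver genes like Apoa1. Cps1 read 451 at 3 days in Ppara KO and was under the floor at 6 days, Plg read 421 and 182, and Lbp read 1061 and 500. In the controls Lbp already read 1190 (wild type) and 1508 (Ppara KO). F10, coagulation factor X, also known as a liver gene, went the other way in Ppara KO. It was under the floor at 3 days and read 459 at 6 days, at least 2.70-fold higher. No list of liver genes was among the lists, so how many others moved was not counted. Tpsab1 and Hdc, of mast cells, were 2-fold lower in Ppara KO, at 512 and 202 and at 382 and 181, and under the floor at both times in wild type. The mast cell list as a whole did not move in Ppara KO. Of 7 members compared, 3 lay above 0 and 4 below there, with a median of -0.03, and Tpsb2 read 639 and 627.

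Genes of neighbouring tissue were looked at on the same arrays. Gpx5, an epididymal glutathione peroxidase, was the gene with the largest change in wild type, at 177 and 4949, and was under the floor at both times in Ppara KO. Of the 9 epididymis and testis genes compared, 4 lay above 0 and 5 below in wild type, with a median of -0.09, and Gpx5 and Clu were the 2 past 2-fold. Adam7, named after its values were seen, was too dim on the other arrays to be compared and read 59 and 1934 in wild type and 63 and 117 in Ppara KO. Clu, clusterin, read 1023 and 2573 in wild type and 1227 and 711 in Ppara KO. Adam28, an epididymal metalloprotease, was not higher, at 227 and 184 in wild type, and the defensin Defb1 was under the floor on all 4 arrays. Lcn5 read 223 in wild type at 6 days, just over the floor, and 18 to 50 on the other 3 arrays. Testis genes such as Prm1, Prm2 and Tnp2 stayed under the floor on all 4 arrays. The summed intensity of the 22 members with a probe set was 4889 and 12891 in wild type and 4661 and 3509 in Ppara KO. The part of this in the other wild type changes was not tested. Pancreas genes showed no such step, with summed intensities of 7093 and 8184 in wild type and 5163 and 4790 in Ppara KO.

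With 1 array a group, no difference above has a replicate check within its genotype, and days of drug cannot be told apart from the animals and the dissection of each sample. In 1 alternative the Ppara KO 6 day array was left out and the spread was taken from the drug-treated arrays. The 6 day level then rests on the wild type array alone, so the spread holds no 6 day variation. Genes that limma called there had fitted changes of -4.12 (Adam8), -4.05 (Saa3), -2.91 (Slpi), -2.64 (Hal) and 3.01 (Elovl6).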

How the data were processed

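The series used Affymetrix U74Av2 arrays, 1 for each of 8 groups. The deposited values are intensities on a linear scale, 11.9% of them below 0. The authors had brought the arrays to nearly one distribution: from the 30th percentile up, quantiles were within 0.353% of their mean. How they corrected background, summarised probes and normalized is not given in the sources used here.

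Symbols came from GEO's platform annotation, updated through RefSeq (GRCm38.p6): 10855 probe sets had 1 symbol, 396 several and 1237 were unnamed. Probe sets with several symbols and 66 control probe sets were left out. Intensities at or under 170, the 40th percentile of the 4 arrays, were set to it, and log2 was taken. Probe sets above it on at least 2 of 4 arrays were kept, the brightest per gene. Genes 2-fold apart within a genotype were counted. limma 3.58.1 in R 4.3.3, with time and genotype as terms, gave the change over both genotypes, adjusted by Benjamini-Hochberg over 5835 genes. It has 1 residual degree of freedom, which also holds any difference between the genotypes' changes. A limma test of that difference with all 8 arrays was added after the data were seen. The scripts were tested on simulated data. Standard errors measure only the spread between these arrays.

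The comparison and its 36 gene lists were chosen with earlier results of these data known. The named genes are Ppara, genes 2-fold apart in the same or in opposite directions in both genotypes, the 8 each way with the largest difference between the changes, any gene limma called, the 4 members of each list with the largest mean change, and a fixed set. Of the fixed set Cpt1b and Lcn5 could not be compared, and some other members are not reported here. Gpd2, Spi1, Csf1r, Lyz2, Itgax, Cx3cr1, Folr2, Ptges, C1qc, C3ar1, Kdr, Tie1, Sox18, Samhd1, Irf5, Irf8, Ifit1, Cd72, Ctss, Lyve1, Cps1, Plg, Lbp, F10, Adam7, Prm1, Prm2, Tnp2, Defb1 and Dbp fall outside that rule and were chosen after their values were seen. Of 57 genes with several probe sets that were 2-fold apart in wild type, 26 had another probe set 2-fold the same way. All other probe sets went in the same direction in 45, and 1 had another 2-fold the opposite way. In Ppara KO these counts were 5, 8 and 0 of 9 genes. Alternatives were other floors, filters, normalization, probe set rules, fold limits and sources of the spread, and leaving out each array.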

Additional observations from a re-analysis of the deposited data

Results flagged for a closer look

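In 9 genes the arrays moved past 2-fold in opposite directions in the genotypes, and these were set apart for that reason. As the change in Ppara KO minus the change in wild type on the log2 scale, the difference was 3.07 for Itgb2, 2.74 for Egr2, 2.65 for Clec4a2, 2.57 for Il7r, 2.54 for Cadm1, 2.45 for Tcirg1, 2.35 for Blnk and 2.26 for Atf3. For Dao it was -3.06. The median change of the 32 pan-macrophage genes was also of opposite sign, -1.53 in wild type and 0.32 in Ppara KO. The difference was not tested within these 4 arrays, which leave no spread for it. With the spread of the control and 8 hour arrays, limma called 0 of 5835 genes for a difference between the changes, and 252 had an unadjusted p under 0.05. That spread rests on 1 residual degree of freedom. The controls and the Ppara KO 8 hour array behind it held epididymal or pancreatic RNA. No group has more than 1 array, so no array could be compared with others of its group.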

How the results depend on the processing

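Counts given here run in the order wild type higher and lower, Ppara KO higher and lower, both higher and both lower, then lower in wild type with higher in Ppara KO and the reverse. At 1.5-fold they were 516, 583, 139, 123, 25, 25, 56 and 16, and at 3-fold 16, 81, 3, 2, 0, 1, 0 and 0. With the floor at the 25th percentile (50) the wild type counts were 267 and 363, the Ppara KO counts 96 and 94, both higher 16, both lower 12 and higher in wild type with lower in Ppara KO 15. With the floor at the 50th percentile (320), Ppara KO lower was 6, both lower 1 and higher in wild type with lower in Ppara KO 0. With all 4 arrays required above the floor, the first was 10 and the last 0. Quantile normalization left 1 gene lower in both. The limma count over both genotypes was 0 in every alternative but 1. When each array was left out in turn it ranged from 0 to 5, and the 5 came without the Ppara KO 6 day array, whose arm is then assumed to vary like the other groups. Of the values of named genes under the alternatives, 2010 kept direction and side of 2-fold, 26 fell inside it, 6 passed it and 0 turned sign. Of the values of 13 gene lists under the alternatives, 10 of 312 counts and 9 of 156 medians moved by over 1.5 times. With no filter on dim probe sets the medians were 0.70 (wild type) and 0.11 (Ppara KO) for brown fat, 0.00 and -0.09 for acute inflammation, and in wild type -0.52 for complement and -0.08 for extracellular matrix. With all 4 arrays above the floor the brown fat median in wild type was 2.02. With the higher floor 13 cell cycle genes were 2-fold lower in wild type. The wild type median of the interferon genes ranged from 0.00 to 0.25, and their 2-fold higher count there from 3 to 8. The other list counts that moved did so by 1 gene. Of the 233 and 120 wild type genes lower and higher, 230 and 118 kept their call under quantile normalization, and 174 and 86 with the higher floor. No paired analysis was possible because each group has 1 array. Dim probe sets limit what could be seen: 53 of the wild type calls and 7 of the Ppara KO calls have 1 side at the floor.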

Other observations

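Of 24 cytosolic ribosomal protein genes 22 were lower at 6 days in wild type, with a median change of -0.37, and 19 in Ppara KO, with a median of -0.05, and 0 were 2-fold apart. Rps24 read 38883 and 25076 in wild type and 39990 and 40272 in Ppara KO. Of 15 circadian clock genes 8 lay above and 7 below 0 in wild type, and 9 above and 6 below in Ppara KO, with medians of 0.11 and 0.13. Per1, a core repressor of the clock, was the 1 member 2-fold lower in wild type, at 444 and 176, and read 328 and 307 in Ppara KO. Nr1d2, a nuclear receptor that represses clock genes, read 931 and 1249 in wild type and 767 and 1243 in Ppara KO. Bhlhe40 read 302 and 472 in wild type and 418 and 765 in Ppara KO. Dbp, an output factor of the clock named after its values were seen, was the 1 member 2-fold higher in Ppara KO, at 511 and 381 in wild type and at 192 and 388 in Ppara KO. The hour at which tissue was taken is not given in the sources used here.

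Slpi, a secreted protease inhibitor counted here with mesothelial and other barrier cells, was lower in both genotypes, at 4138 and 569 in wild type and at 4457 and 2444 in Ppara KO. The other 6 mesothelial markers compared were within 2-fold in both. Among peroxisomal genes Pex6, which is needed for import into peroxisomes, was the only one of 16 past 2-fold, at 796 and 1975 in wild type and at 823 and 725 in Ppara KO. Of 8 neutrophil genes 7 lay below 0 in Ppara KO, where 48% of all genes did, with a median of -0.36, and Lcn2 was 2-fold lower. In wild type 2 lay above 0 and 3 below, with a median of 0.00. S100a8 was 2-fold lower in wild type, at 746 and 269, and read 1282 and 997 in Ppara KO. Ly6g, Mpo, Ltf and 4 other neutrophil genes were at or under the floor on all 4 arrays.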
